A study of Mus musculus with 10 samples.

Results

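Genes for the subunits of the 3 nuclear RNA polymerases were examined in the RNA-seq libraries of a series that maps R-loops, structures in which RNA pairs with one DNA strand. The members were the protein-coding rows whose GENCODE vM21 symbol begins with Polr1, Polr2 or Polr3 followed by a letter, 28 of 55487 rows. One further row fitted the symbol pattern, the processed pseudogene Polr2k-ps, and had 0 counts in each library. All 3 RNA-seq libraries came from E14, an established mouse embryonic stem cell line, in one unperturbed state. The labels give a medium with 15% serum, LIF, a GSK inhibitor at 3 µM and a MEK inhibitor at 1 µM, and no genetic change. The labels number the libraries as replicates 1 to 3 and do not say whether they came from separate cultures, so the spread given here may be technical. With 1 group there is no contrast between conditions, and the comparisons below are between genes within each library and between the libraries. The 7 samples of the R-loop assays were not used here.

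Cells of all animals divide nuclear transcription among 3 enzymes. Pol I makes the large ribosomal RNA precursor, Pol II makes messenger RNA and many noncoding RNAs, and Pol III makes transfer RNA, 5S ribosomal RNA and other small RNAs. Each is built around a pair of large catalytic subunits, an alpha-like pair on which the core assembles, a protruding stalk and a zinc ribbon subunit involved in RNA cleavage. Some subunits serve all 3 enzymes, the alpha-like pair is shared by Pol I and Pol III, and Pol I and Pol III carry built-in relatives of the Pol II initiation factors TFIIF and TFIIE. Growing stem cells draw on all of them for ribosome production.

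The libraries held from 5787357 to 11420425 estimated counts, and member counts ran from 13 to 5014. Replicate 3 stood apart from the other libraries, with lower values for long genes, so the differences between list medians are also given without it. Protein-coding genes held 22.9%, 18.6% and 17.3% of TPM in replicates 1, 2 and 3, and TPM (transcript abundance scaled to gene length and library total) was lowest in replicate 3 for 79.4% of the 9683 protein-coding genes with a mean TPM of at least 1. The same held for 16 of the 28 members. The stem cell factors Nanog and Pou5f1 had 183 ± 29.9 and 149 ± 21.7 TPM (SD, n = 3). Of 5 fibroblast markers, 1 reached a mean TPM of 1 (Thy1), their summed level was 1.35 to 3.45 TPM per library, and Postn was at 0 in each. None of 6 markers of differentiated lineages reached a mean TPM of 1.

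All 28 subunit genes were expressed, but their mRNA levels were far from equal. Each had a mean TPM of at least 1, against 44.1% of the 21974 protein-coding rows. The median member had 9.98, 10.35 and 9.04 TPM in replicates 1, 2 and 3, where those 9683 expressed protein-coding genes had medians of 7.11, 5.58 and 4.39 TPM. Mean levels ran from 1.06 TPM for Polr3gl to 43.9 TPM for Polr1c, a 41.6-fold range, although most of these proteins occupy 1 place each in their enzyme. Means were at least 10 TPM for 15 members. Together the members held 0.18% of protein-coding TPM (0.182 ± 0.003, SD, n = 3).

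**Figure D1:**
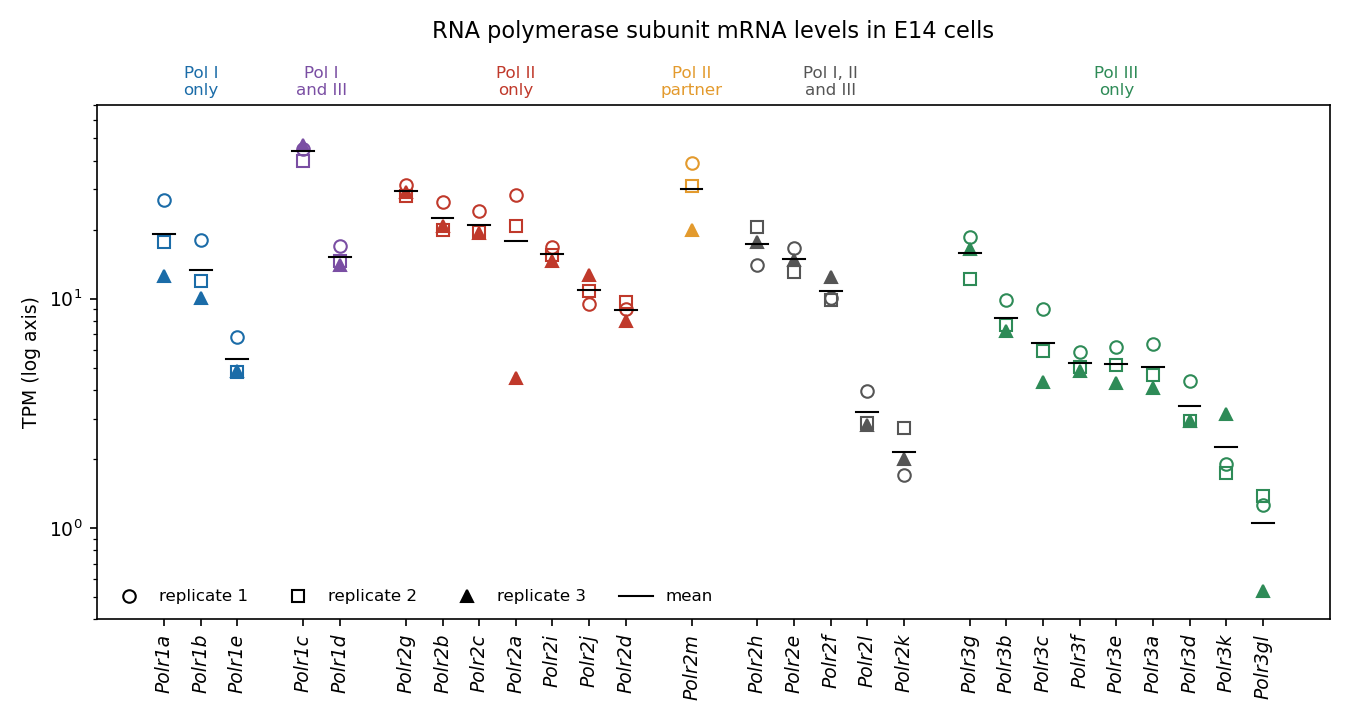
TPM (log axis) of 27 of the subunit genes in each of the 3 replicates (circle, square and filled triangle) with their mean (black line), grouped by the enzymes that use the protein. The Pol III genes other than Polr3g sit mostly below the Pol II genes, and Polr2a in replicate 3 lies at 4.49 TPM, far under its other values.

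Lists were compared by the difference of their medians in log2(TPM + 1) within each library. Genes used only by Pol II (7 genes) exceeded those used only by Pol III (10 genes) by 1.75 ± 0.13 (SD, n = 3), with 1.84, 1.81 and 1.59 in replicates 1, 2 and 3. Genes used only by Pol I (3 by this symbol rule) exceeded those of Pol III by 1.23 ± 0.18 (SD, n = 3). In every library, then, the Pol III list was the lowest of these 3. The Pol II list exceeded the Pol I list by 0.52 ± 0.13 (SD, n = 3), a difference that was 0.90 with the Pol I and Pol III subunits that carry other symbols and turned to -0.74 in CPM (counts scaled to the library total, with length uncorrected). Each of these differences had the same sign in all 3 libraries. An exact sign-flip permutation test over 3 replicates cannot go below a two-sided p of 0.25, and each gave that value, so none can pass 0.05. Without replicate 3 the differences were 1.82, 1.29 and 0.53 in the order given.

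The largest subunits carry most of the catalytic site, and in Pol II the largest also carries the long heptad repeat tail that processing factors bind. Polr2a, its gene (ENSMUSG00000005198, GRCm38 chromosome 11, 69733997 to 69758637, minus strand), had 28.28, 20.73 and 4.49 TPM in replicates 1, 2 and 3. Replicate 3 was the low library, while replicates 1 and 2 lay close together. Polr1a, the Pol I equivalent, had 26.96, 17.64 and 12.59 TPM. Polr3a, the Pol III equivalent, had 6.36, 4.66 and 4.10 TPM. Polr1a and Polr2a thus stood at similar levels in replicates 1 and 2, and Polr3a was below Polr1a in all 3 libraries (ratio of Polr1a to Polr3a 3.70 ± 0.59, SD, n = 3).

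The second largest subunits, which complete the active centre, gave an order in TPM that held in every library. Polr2b (Pol II) had 26.46, 20.01 and 20.86 TPM, Polr1b (Pol I) 17.96, 12.00 and 10.07 TPM, and Polr3b (Pol III) 9.84, 7.66 and 7.21 TPM. The ratio of Polr2b to Polr3b was 2.73 ± 0.15 (SD, n = 3) and that of Polr1b to Polr3b 1.60 ± 0.22 (SD, n = 3). In CPM, without length scaling, Polr1b was below Polr3b in all 3 libraries, at ratios of 0.960, 0.870 and 0.816. Within an enzyme the catalytic pair was matched differently. Polr1a exceeded Polr1b by 1.41 ± 0.14 times (SD, n = 3), Polr3a was 0.608 ± 0.039 of Polr3b (SD, n = 3), and Polr2a was 1.07 and 1.04 of Polr2b in replicates 1 and 2 but 0.215 in replicate 3.

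The alpha-like subunits start assembly of the core, and they reversed the order of the enzymes. Polr1c, shared by Pol I and Pol III (ENSMUSG00000067148, chromosome 17, 46243920 to 46248054, minus strand), was the highest of all members at 45.11, 39.88 and 46.76 TPM. Its Pol II counterpart Polr2c had 24.04, 19.55 and 19.31 TPM. The smaller partner shared by Pol I and Pol III, Polr1d, had 16.94, 14.64 and 14.07 TPM. Its Pol II counterpart Polr2j had 9.46, 10.79 and 12.63 TPM. In both positions the gene shared by Pol I and Pol III was above the Pol II gene in 3 of 3 libraries, by 2.11 ± 0.28 and 1.42 ± 0.34 times (SD, n = 3). The partners were not matched to each other, since Polr1c exceeded Polr1d by 2.90 ± 0.36 times and Polr2c exceeded Polr2j by 1.96 ± 0.52 times (SD, n = 3). On the opposite strand, exons of Dok4 cover 18.1% of Polr2c exon bases and exons of Lrwd1 cover 15.9% of those of Polr2j. The strand setting of the counting is not given in the sources used here, so levels of such overlapping genes are uncertain.

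The stalk binds the emerging RNA and initiation factors, and here the Pol II gene was far above that of Pol I in TPM, though not in CPM. Polr2g had 31.21, 28.15 and 29.32 TPM (CV of TPM 5.22%, the smallest among the members). In CPM, without length scaling, it was less even, at 55.3, 60.6 and 70.7 in replicates 1, 2 and 3. The Pol I gene at this position is named Twistnb in the annotation and had 6.90, 6.30 and 8.86 TPM. This gap depended on length, which was 4094, 3922 and 2285 nt for Twistnb against 884, 880 and 868 nt for Polr2g. In CPM Twistnb had 64.9, 69.8 and 62.6, above Polr2g in replicates 1 and 2 and below it in replicate 3. The partner of Polr2g in the stalk, Polr2d, had 8.98, 9.71 and 8.01 TPM, and its Pol III equivalent, named Crcp, had 5.50, 5.26 and 3.33 TPM. Polr2g exceeded Polr2d by 3.345 ± 0.397 times (SD, n = 3), although their proteins form a dimer.

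The zinc ribbon subunits help the enzymes to cleave and release stalled RNA. Znrd1 of Pol I had 22.83, 18.38 and 17.16 TPM, Polr2i of Pol II 16.88, 15.51 and 14.66 TPM, and Polr3k of Pol III 1.90, 1.73 and 3.15 TPM. Here the Pol I gene was above the Pol II gene in 3 of 3 libraries, and both were above the Pol III gene. The size of the gap to Polr3k depended on length, which was 2948, 2948 and 1674 nt for Polr3k. In TPM the mean ratios to Polr3k were 7.50 for Polr2i and 9.36 for Znrd1. In CPM they were 1.43, 1.39 and 1.37 for Polr2i and 2.28, 1.89 and 1.76 for Znrd1 in replicates 1, 2 and 3. Of the 6 positions compared between Pol II and Pol III, 4 had the Pol II gene higher in TPM in all 3 libraries. At 2 of 6, the alpha-like pair, it was lower. Against Pol I, the Pol II gene was higher in TPM in all 3 libraries at 2 of 6 positions and lower at 3. The difference between those list medians thus did not hold position by position. Of Polr2i exon bases, 26.8% also lie in exons of Tbcb on the opposite strand.

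**Figure D2:**
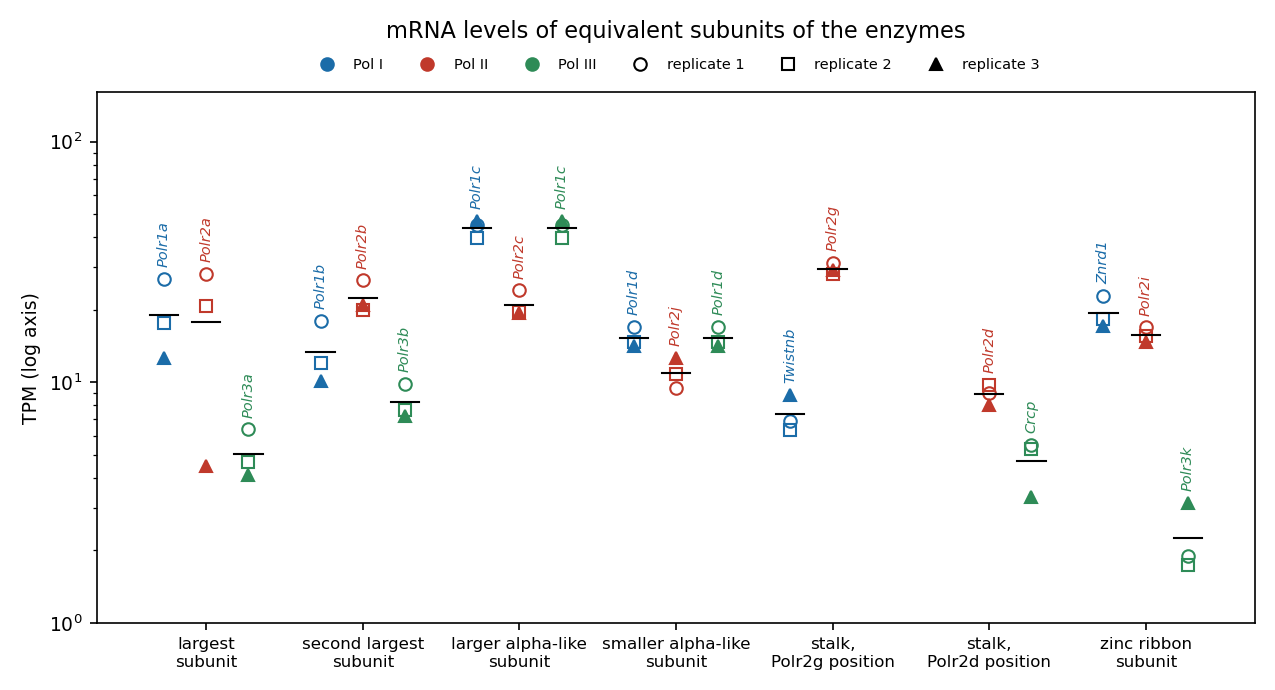
TPM (log axis) of the genes that fill the same structural position in Pol I (blue), Pol II (red) and Pol III (green), with replicates as circle, square and filled triangle and the mean as a black line; Polr1c and Polr1d are drawn under both enzymes that use them, and the stalk positions are drawn for a pair of enzymes each. Pol III genes are lowest wherever they are drawn except at the alpha-like positions, where the shared gene lies above the Pol II gene; Polr2a in replicate 3, at 4.49 TPM, is close to Polr3a.

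The 5 subunits common to all 3 enzymes were not the most abundant. Polr2h had 13.97, 20.54 and 17.64 TPM, Polr2e 16.69, 13.07 and 14.78 TPM and Polr2f 10.11, 9.91 and 12.42 TPM. Polr2l and Polr2k, small zinc-binding subunits, were much lower in TPM, at 3.21 ± 0.64 and 2.15 ± 0.52 (SD, n = 3). For Polr2l this gap depended on length, which was 1650 nt in each library against 790, 827 and 786 nt for Polr2f. In CPM, without length scaling, Polr2l had 14.17, 12.65 and 14.02, nearer to Polr2f at 15.67, 19.79 and 26.61. Polr2k remained low in CPM, at 1.63, 2.96 and 2.55. The common list lay below the Pol II list by 0.77 on the log2(TPM + 1) scale, with a SD of 0.49 (n = 3), and its differences were -1.17, -0.91 and -0.22 in replicates 1, 2 and 3. It was below in every library, by an amount that varied more than for the other lists, and without replicate 3 the value was -1.04. With Polr2a left out of the Pol II list it was -0.70, with a smaller SD of 0.26 (n = 3). Leaving out Polr2k and Polr2l gave -0.43.

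Counting limits the values of these last genes. Polr2k had 18.61, 19.17 and 14.78 estimated counts, fractions that arise when reads are divided among genes. Its transcripts align at 95% identity or more over at least 150 nt to those of 6 other genes, all pseudogenes, and Polr2l to 3 others, among them Usp50 and Gm10774. Polr2c and Polr2h have such copies too, and counts of these 4 members were fractional in every library. Their levels are therefore uncertain. Of the 28 members, 23 had whole counts in all 3 libraries.

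Most subunits found only in Pol III had levels below 10 TPM, with Polr3g above them. The TFIIF-like pair, Polr3d and Polr3e, had 3.41 ± 0.83 and 5.20 ± 0.96 TPM (SD, n = 3). Polr3c and Polr3f, which with Polr3g or Polr3gl form the trimer needed to start transcription, had 6.41 ± 2.36 and 5.24 ± 0.54 TPM (SD, n = 3). Polr3g was the highest Pol III gene at 18.57, 12.18 and 16.50 TPM, exceeding Polr3c and Polr3f in all 3 libraries by 2.64 ± 1.00 and 3.00 ± 0.53 times (SD, n = 3). The TFIIF-like Pol I subunits were Polr1e, at 6.81, 4.77 and 4.84 TPM, and Cd3eap, at 3.18 ± 0.49 TPM (SD, n = 3).

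Polr3g and Polr3gl encode alternative versions of one trimer subunit. Polr3g is known for high expression in pluripotent cells and Polr3gl for expression in most differentiated tissues. Polr3g (ENSMUSG00000035834, chromosome 13, 81673843 to 81711013, minus strand) had 1011, 624 and 564 counts. Polr3gl (ENSMUSG00000028104, chromosome 3, 96577872 to 96594181, minus strand) had 32, 24 and 13 counts, and 1.26, 1.38 and 0.53 TPM. Polr3gl was the lowest member in each library, and the 2 genes did not overlap. The difference in log2(TPM + 1) was 3.03 ± 0.53 (SD, n = 3), with 3.11, 2.47 and 3.52 in replicates 1, 2 and 3, and 2.79 without replicate 3. As a TPM ratio it was 14.7 (exact 95% interval 10.4 to 21.7), 8.83 (5.88 to 13.9) and 31.1 (18.1 to 58.9), intervals that cover counting error only. Polr3gl was at the 1.21 percentile and Polr3g at the 80.3 percentile of the protein-coding genes with a mean TPM of at least 1. The exact sign-flip permutation test again gave its smallest possible two-sided p of 0.25.

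The promoters of this pair and of Polr2a are shown because Polr3g and Polr3gl are alternatives for one position and Polr2a is the member that varied between libraries. Each is the 250 bases before the RefSeq start (GRCm38.p6, minus strand, 5′ to 3′), with 3 searched motifs in capitals, the TATA box TATAAA, the E-box CACGTG and the ETS motif CCGGAAG, each sought on both strands. The windows lie at chr13:81711014-81711263, chr3:96594182-96594431 and chr11:69758634-69758883.
Polr3g: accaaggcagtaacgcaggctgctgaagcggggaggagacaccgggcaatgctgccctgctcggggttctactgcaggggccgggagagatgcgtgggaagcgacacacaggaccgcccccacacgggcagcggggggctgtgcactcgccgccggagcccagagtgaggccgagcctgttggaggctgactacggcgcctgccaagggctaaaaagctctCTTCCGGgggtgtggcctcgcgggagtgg
Polr3gl: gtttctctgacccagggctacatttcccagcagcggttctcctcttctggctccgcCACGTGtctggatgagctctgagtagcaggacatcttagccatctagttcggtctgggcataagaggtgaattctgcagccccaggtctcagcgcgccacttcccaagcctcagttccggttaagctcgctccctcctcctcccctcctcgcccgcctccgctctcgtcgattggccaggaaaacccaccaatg
Polr2a: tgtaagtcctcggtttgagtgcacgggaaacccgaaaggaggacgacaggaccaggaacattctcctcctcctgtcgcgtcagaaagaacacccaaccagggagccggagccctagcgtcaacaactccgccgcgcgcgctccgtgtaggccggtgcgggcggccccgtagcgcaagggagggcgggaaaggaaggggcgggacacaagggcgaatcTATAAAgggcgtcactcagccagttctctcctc

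Each of the 3 windows held one of the motifs in capitals. Polr3g had the ETS motif 29 to 23 bases before the start, Polr3gl the E-box 194 to 189 bases before it, and Polr2a the TATA box 33 to 28 bases before it. Over 21263 windows of protein-coding genes the ETS motif was in 8.98%, the E-box in 6.63% and the TATA box in 11.6%. RefSeq windows were matched for 22 of the 28 members, of which 5 held the ETS motif (Polr1c, Polr2f, Polr2j, Polr3b and Polr3g), 2 the E-box and 2 the TATA box. The GC box GGGCGG, also sought on both strands, was in the windows of Polr2a and Polr3g, in 14 of the 22 matched members and in 42.6% of all windows. The CCAAT box was in the window of Polr3gl, in 7 of the 22 and in 35.4% of all windows. A match is a description of the letters and no evidence that a factor binds there.

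Polr2m encodes Gdown1, a Pol II partner that is not part of every enzyme. It had 39.18, 31.07 and 19.86 TPM, above Polr2b in replicates 1 and 2 and below it in replicate 3. Its mean was the next highest after that of Polr1c.

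The order of the members was reproducible in outline. Of 378 pairs of members, 318 (84.1%) were in the same order in all 3 libraries. Of the 27 neighbours in the order of mean TPM, 8 kept their order in every library, and for 4 the ranges did not overlap. These breaks lay below Polr1c, between Polr2g and Polr2b, between Polr2f and Polr2d, and between Polr2k and Polr3gl. All other neighbours overlapped, so the members between Polr2b and Polr2f form a continuum within the spread, and likewise those from Polr2d to Polr2k.

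Variation between libraries was then tested gene by gene over the whole table, with counts scaled by TMM (a scaling for library composition) and edgeR's goodness-of-fit test. Of 12577 genes tested, 1.84% varied by more than genes of similar abundance at an adjusted p under 0.05. All 28 members were tested and 1 was called, Polr2a (edgeR goodness of fit, Benjamini-Hochberg adjusted p 3.81e-06). Its TMM-scaled CPM were 420.1, 384.4 and 95.3 in replicates 1, 2 and 3, from 5014, 2551 and 506 counts. Replicate 3 was 4.22-fold below the mean of the other 2. The call held with DESeq2 size factors and with replicate 1 or 2 left out (edgeR adjusted p 1.55e-04 and 0.00238). Without replicate 3 no member was called by edgeR, 1 had an unadjusted p under 0.05, and the adjusted p of Polr2a was 0.999. Of all 13608 genes tested in that setting, 93 were called and 510 had an unadjusted p under 0.05.

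**Figure D3:**
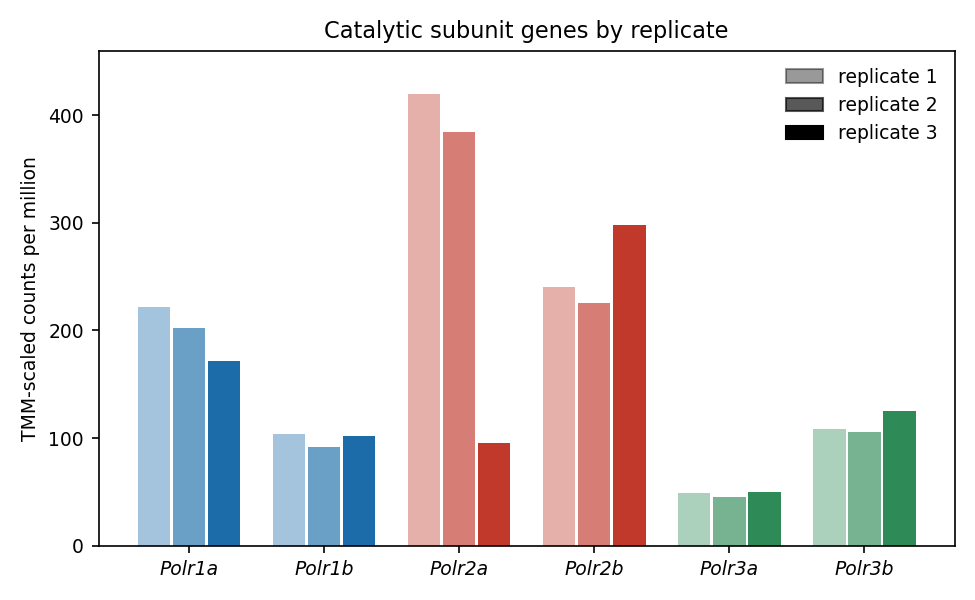
TMM-scaled CPM (bars from 0, not corrected for length) of the largest and second largest subunit genes of Pol I, Pol II and Pol III in replicates 1, 2 and 3, from light to dark. Polr2a falls from 420.1 and 384.4 in replicates 1 and 2 to 95.3 in replicate 3, while Polr2b is at 240.4, 225.9 and 298.0.

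Gene length moved with the values of replicate 3 and is given beside this result. The log2 ratio of replicate 3 to the mean of replicates 1 and 2 was -2.08 for Polr2a, whose length was 6677, 6628 and 6065 nt in the tables. Among 563 other protein-coding genes within 20% of that length and with a mean count of at least 100, the median ratio was -0.22, the 5th percentile -1.02 and the lowest -2.05, so none was as low. Of all 7877 protein-coding genes with that count, 3 were lower, namely Dvl3, Mbd6 and Gm20388, which are named because the count is small and were chosen after their values were seen. After correction of each library for gene length the edgeR call of Polr2a held (adjusted p 4.85e-07). No other annotated gene overlaps Polr2a, and no other gene has a transcript of 95% identity over 150 nt.

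The remaining 27 members did not pass this test. The lowest p-values after Polr2a were those of Polr2h, Polr2j and Polr2f, with edgeR adjusted p of 0.292, 0.441 and 0.518. Polr2j had 11.2, 15.5 and 23.2 TMM-scaled CPM and Polr2f 15.0, 19.3 and 29.0, in both cases highest in replicate 3. In all, 19 of 28 members were highest in replicate 3 on this scale, against 40.0% of protein-coding genes tested. Of the 14 members under 1500 nt, 13 were higher in replicate 3 than in the mean of the others, with a median log2 ratio of 0.40. Of all 2671 protein-coding genes of that length tested, 71.4% were higher, with a median of 0.18. Of the 13 longer members other than Polr2a, 9 were, with a median of 0.10, against 42.2% and a median of -0.06 for 8550 protein-coding genes of that length. Across the 27 members without Polr2a, Spearman's rho of this ratio with length was -0.567, and across all protein-coding genes with a mean count of at least 100 it was -0.442. These are descriptions across genes of the same libraries. With each library corrected for gene length, 2 of the 28 members had an unadjusted p under 0.05 in edgeR's test, in place of 4 without the correction. Polr2a was again the one called. Over all 12577 genes tested, 803 had such a p with the correction and 875 without it, and 187 and 232 were called.

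**Figure D4:**
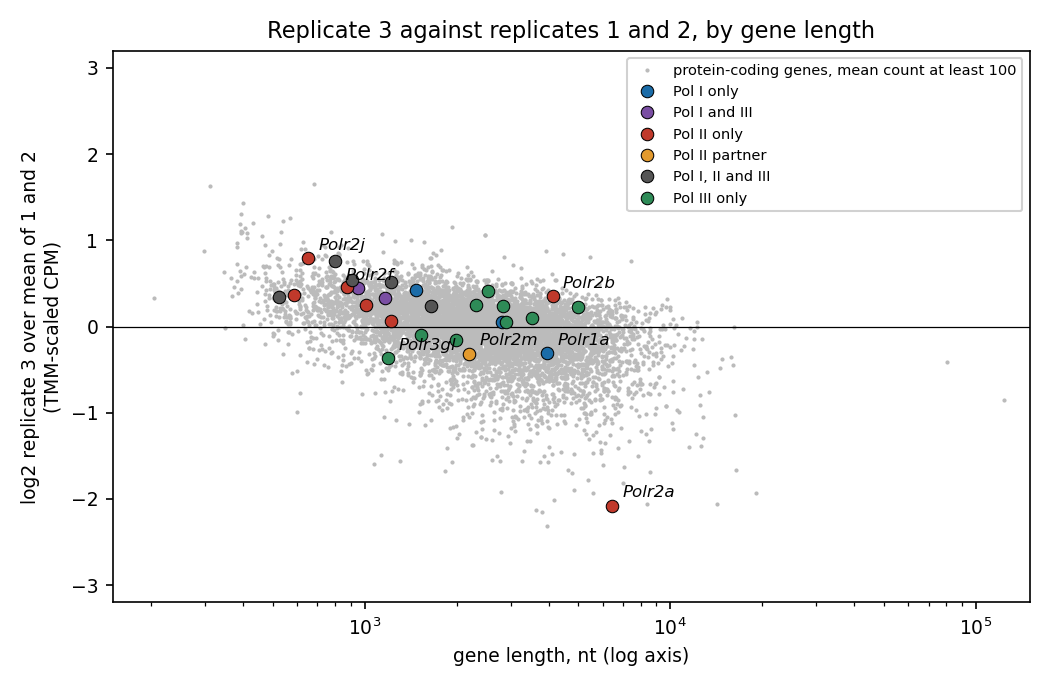
Log2 ratio of replicate 3 to the mean of replicates 1 and 2 (TMM-scaled CPM) against gene length (log axis), for 27 of the members (coloured by the enzymes that use them) and 7877 protein-coding genes with a mean count of at least 100 (grey). Short members lie mostly above 0, and Polr2a lies at -2.08, below all genes of similar length.

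Factors that act with the polymerases in initiation, termination, repression or assembly were taken from lists outside the symbol rule. The Pol I list includes a termination factor, the Pol III list a repressor, and the Pol II list the TATA binding protein, which all 3 enzymes use. The median of mean TPM was 10.4 for 13 general factors of Pol II, 5.45 for 11 factors of Pol III, 4.48 for 7 factors of Pol I and 6.34 for 6 assembly factors, and all 37 reached a mean TPM of 1. The Pol II factors ran from Gtf2h4 of TFIIH, at 4.66 ± 0.25 TPM, to Gtf2e2 of TFIIE, at 44.8 ± 3.59 TPM (SD, n = 3). The Pol III factors ran from Gtf3c5 of TFIIIC, at 2.73 ± 0.80 TPM, to Gtf3c2 of the same complex, at 14.6 ± 6.06 TPM (SD, n = 3). The Pol II factors were above the Pol III factors in these medians, as among the subunits. The Pol I factors were below the Pol III factors in them, opposite to the subunits, but the gap was not clear in every library. Median TPM was 4.64, 5.07 and 3.93 for Pol I factors in replicates 1, 2 and 3. For Pol III factors it was 6.66, 5.08 and 4.66, so the lists were nearly equal in replicate 2. The Pol I factors ran from Taf1a, a selectivity factor subunit, at 1.89 ± 0.20 TPM, to Taf1d at 36.1 ± 3.62 TPM (SD, n = 3), and the assembly factors from Rpap3 at 2.43 ± 0.68 to Gpn1 at 14.3 ± 1.48 TPM (SD, n = 3). None of the 37 was called in edgeR's test of variation, where 1.84% of all genes were, and 2 had an unadjusted p under 0.05, against 6.96% of all genes.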

How the data were processed

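Per the labels' protocols, RNA from E14 cells went through DNase and ribosomal RNA depletion before strand-specific library preparation. STAR and RSEM are among the tools, and mm10 is the build, in the submitters' processing notes. Versions, annotation release and strand setting are not given in the sources used here. Per the file headers, the authors deposited for each of 55487 genes a length, an expected count (estimated count, not normalized), TPM and FPKM. TPM was used for levels and FPKM as an alternative.

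Symbols and coordinates came from GENCODE vM21 (GRCm38), which matched 55227 rows. The members and lists were chosen with earlier results of these data known. By rule the genes named were the members, the 4 subunits under other symbols, the highest and lowest gene of each factor list, and markers; neighbours, near copies and genes lower than Polr2a were named after their values were seen. One member is counted but not reported singly here.

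Expected counts were rounded for edgeR 4.0.16 (filterByExpr, TMM, intercept only, trended dispersion, goodness-of-fit test, Benjamini-Hochberg over 12577 genes), tested on simulated data. Near copies were sought with blastn (95% identity, 150 nt). Alternatives used DESeq2 1.42.0 size factors, other units, pseudocounts, filters, lists and left-out replicates. A floor of 3 counts was 0.263, 0.464 and 0.518 CPM in replicates 1, 2 and 3. Floors and intervals cover counting error only.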

Additional observations from a re-analysis of the deposited data

How the results depend on the processing

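The 9 results were recomputed under 75 alternatives, 68 planned and 7 chosen after seeing the data. Of these, 59 stayed within the allowed spread, 15 moved and 1 reversed. For results given as a mean, that spread was the SD over the 3 replicates. Leaving out 1 replicate cannot move a mean of 3 by that much, and the filter on mean TPM of at least 1 removed no member. Those alternatives were bound to stay within the spread, so their labels say nothing about stability. The reversal was that of the Pol II list against the Pol I list, which became -0.74 in CPM. CPM applies no length scaling. In CPM the difference was 0.72 for Pol II against Pol III, 1.46 for Pol I against Pol III, -1.49 for common subunits against Pol II and 4.62 for Polr3g against Polr3gl, and the median level was 5.42. The median level was 3.43 in log2(TPM + 1), 3.30 with a pseudocount of 0.1, 4.84 in FPKM and 4.79 in TPM without rows of effective length under 100 nt. A pseudocount of 0.1 gave 1.92 for Pol II against Pol III and 3.85 for Polr3g against Polr3gl, which was 3.56 in FPKM. With the subunits under other symbols, the Pol II list exceeded the Pol I list by 0.90 and the Pol I list exceeded the Pol III list by 0.85. The share of the members was 0.237% in estimated counts. The number of varying members was 1 without replicate 1 or without replicate 2 and 0 without replicate 3, with equally few libraries tested each time. Over all genes tested in these settings, 89 of 12558, 63 of 13302 and 93 of 13608 were called. The number with a mean TPM of at least 1 ran from 27 to 28 when one replicate was left out, since Polr3gl fell below it. At a threshold of 5 TPM the number was 22. Depth limits Polr3gl and Polr2k, with at most 32 counts. No paired analysis was possible because the RNA-seq libraries form a single group with nothing to pair against.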

Other observations

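For some members the length in the tables, which depends on how reads were divided among transcripts, differed between libraries. Polr3k, the Pol III zinc ribbon gene, had a length of 2948, 2948 and 1674 nt in replicates 1, 2 and 3. Its TMM-scaled CPM were 12.1, 13.9 and 17.3, while its TPM were 1.90, 1.73 and 3.15. The length of Polr3g was 2145, 2846 and 1934 nt, with 84.7, 94.0 and 106.2 TMM-scaled CPM and 18.57, 12.18 and 16.50 TPM. Which transcripts were present was not tested.

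The genes lower in replicate 3 than Polr2a were Mbd6, Dvl3 and Gm20388. In TMM-scaled CPM, Mbd6 was at 43.4, 41.6 and 9.61 in the 3 libraries, Dvl3 at 34.4, 29.99 and 7.35, and Gm20388 at 47.7, 50.03 and 9.80. They were chosen after their values were seen. Polr2a had the most counts of these genes, 5014, 2551 and 506.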
